A study of Thermothelomyces thermophilus ATCC 42464 with 4 samples.

Results

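The peptidase genes of *M. thermophila* described here are the alkaline protease gene *alp-1* (*Mycth_2303011*), *Mycth_117209*, a neutral zinc metallopeptidase gene, and *Mycth_114376*, a dipeptidyl-peptidase III gene of peptidase family M49. They are 3 of the 8716 genes with a value, and they were chosen from the peptidases by their transcript levels in these same libraries. Their levels are therefore given as a description and were not tested. *M. thermophila* is a thermophilic filamentous fungus that grows on crystalline cellulose. Mycelia of strain ATCC 42464 grew at 45°C for 16 h in 2% glucose and were then moved for 4 h to 2% Avicel, a crystalline cellulose, and both groups shared this treatment. The first group is MtWT, the wild type, and the second carries a deletion of MtTrh-1, with 2 libraries each. From the title of the data set, MtTrh-1 was read as the Cys2His2 transcription factor MtTRC-1 (*Mycth_90344*), whose gene was replaced with a *neo* cassette by CRISPR/Cas9. That the names mean the same gene was inferred. The paper's methods state 3 independent biological replicates for its RNA sequencing, and it is not told if these libraries are among them. No label tells if a strain was cultured more than once. The p-values given further on therefore cover library-to-library spread alone, and this spread may be technical.

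The targeted gene went against this reading of the labels. *Mycth_90344* had 13.29 and 14.47 FPKM in the MtWT libraries, but 215.45 and 223.41 FPKM in those labelled MtTrh-1 deletion. FPKM are fragment counts scaled to gene length and to the size of the library. The libraries are therefore named by their label throughout ("the labelled libraries" are those labelled MtTrh-1 deletion), and directions follow the labels. The FPKM summed to between 725984 and 741923 per library, and the read numbers behind them are not given in the file.

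Peptidases cut the peptide bonds of proteins. Fungi secrete some of them, often serine and aspartic proteases, to digest protein outside the hypha, and the amino acids and short peptides released are taken up by transporters. Others work inside the cell, in the turnover of proteins and peptides. No product description was at hand for *Mycth_2303011*, and the name *alp-1* came with the choice of the genes and could not be checked against an annotation. *alp-1* encodes a secreted serine protease of the subtilisin type, and its gene has been deleted in strains of this fungus to protect secreted enzymes from digestion. Dipeptidyl-peptidase III is a zinc exopeptidase of the cytosol that removes dipeptides from the amino end of short peptides. The description of *Mycth_117209* names only a zinc-binding site of metallopeptidases, so its substrate and place in the cell are not known from it.

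The 3 genes differed in direction. *alp-1* (*Mycth_2303011*) stood at 79.30 and 83.63 FPKM in MtWT, against 55.50 and 47.99 FPKM in the labelled libraries. The groups did not overlap, with both labelled libraries below both MtWT libraries. Such a separation, in either direction, held for all 3 genes and for 82.9% of the genes that averaged 1 FPKM or more, and nothing is read from it. The means were 81.5 ± 3.1 FPKM (SD, n = 2) in MtWT and 51.7 ± 5.3 FPKM in the other strain, 1.57-fold lower. All fold changes here are on the log2(FPKM + 1) scale, on which this difference was −0.65. Between single libraries of the 2 strains, the fold ran from 1.42 to 1.73, short of 2-fold for every pair.

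*Mycth_117209*, the zinc metallopeptidase gene, was the only one of the 3 that was higher in the libraries labelled MtTrh-1 deletion. It stood at 127.25 and 128.30 FPKM there, and at 38.44 and 40.80 FPKM in MtWT. Both labelled libraries lay far above both MtWT libraries. The log2 fold change was 1.67, with means of 128 ± 0.74 FPKM (SD, n = 2) and 39.6 ± 1.7 FPKM, a 3.17-fold difference. Pooled over both strains, its SD was the smallest of the 3 genes, at 0.042 on the log2 scale. It was 0.077 for *Mycth_114376* and 0.110 for *alp-1*. In MtWT alone, the libraries differed by 0.084 on this scale for *Mycth_117209* and by less, 0.076, for *alp-1*. Among 7525 genes whose mean reached 1 FPKM, 78.9% had a smaller pooled SD than *alp-1*. For *Mycth_114376* this share was 60.9%, and for *Mycth_117209* it was 27.4%.

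*Mycth_114376*, the dipeptidyl-peptidase III gene, had the lowest level of the 3 in the libraries labelled MtTrh-1 deletion, at 16.80 and 18.30 FPKM. In MtWT it stood at 45.96 and 42.80 FPKM. The groups did not overlap, and the labelled libraries were the lower ones, as for *alp-1*. The means were 17.6 ± 1.1 FPKM (SD, n = 2) and 44.4 ± 2.2 FPKM, a log2 fold change of −1.29 and a 2.45-fold difference. With a pseudocount of 10 in place of 1, the log2 fold change was −0.98, just short of 2-fold.

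**Figure D1:**
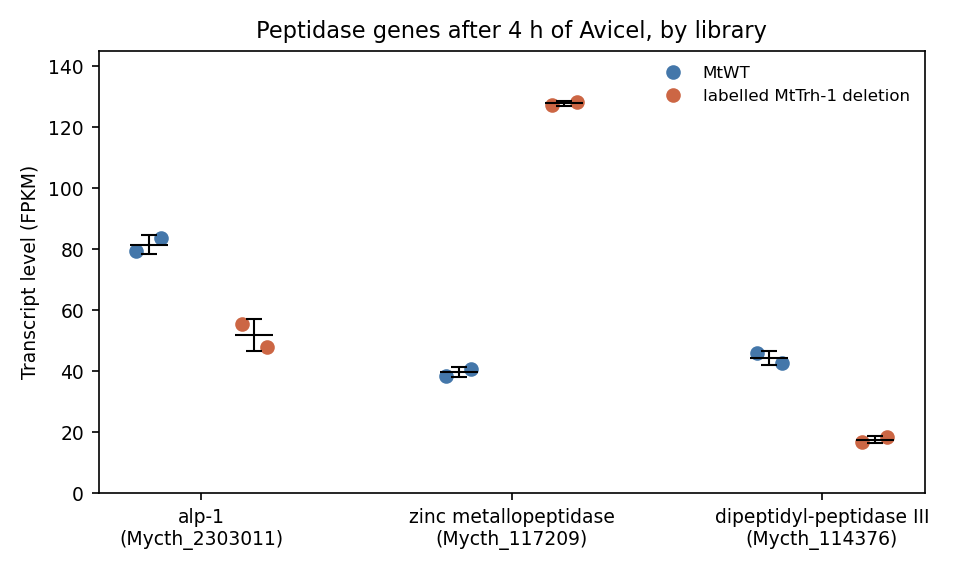
Transcript level in FPKM (vertical axis) of the 3 peptidase genes (horizontal axis) in each library after 4 h of Avicel. Points are libraries, blue for MtWT and orange for those labelled MtTrh-1 deletion, and bars are the mean ± SD (n = 2). *alp-1* and *Mycth_114376* are lower and *Mycth_117209* is higher in the labelled libraries, with no overlap.

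The order of the 3 levels, which are scaled to gene length, differed between the strains. In MtWT, *alp-1* was the highest, and *Mycth_114376* and *Mycth_117209* followed well below it. The ratio of *Mycth_117209* to *alp-1* was 0.485 and 0.488 in the MtWT libraries. The ratio of *Mycth_114376* to *alp-1* was 0.580 and 0.512. The highest MtWT value of *Mycth_117209*, 40.80 FPKM, lay close to the lowest of *Mycth_114376*, 42.80 FPKM, so these neighbours in the order were set apart by little more than their spread. In the libraries labelled MtTrh-1 deletion, *Mycth_117209* came first, at 2.29 and 2.67 times the level of *alp-1*. *Mycth_114376* came last there, at 0.303 and 0.381 times *alp-1*. The sum of the 3 genes was 163.70 and 167.23 FPKM in MtWT and 199.55 and 194.59 FPKM in the labelled libraries.

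Against the other genes of a library, all 3 were expressed above the middle of the range in MtWT. The level of *alp-1* was above that of 84.9% and 85.6% of all genes in the MtWT libraries, and above 79.7% and 77.7% in those labelled MtTrh-1 deletion. *Mycth_117209* was above 72.9% and 74.1% of genes in MtWT, and above 90.4% and 90.5% in the other strain. For *Mycth_114376* these shares were 76.4% and 75.2% in MtWT, and 52.9% and 55.0% in the labelled libraries, near the middle of all genes.

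The other peptidase genes with a description showed no call in either direction. Product descriptions were at hand for 1490 genes of the file, and 20 of them, with the 3 genes above left out, name a peptidase or protease. Of these, 10 had a mean that reached 1 FPKM and were tested with limma over the 7525 genes at that level, and 10 were below it and were not tested. A call needed a Benjamini-Hochberg adjusted p under 0.05 and a change of more than 2-fold, the criteria of the study. None of the 10 was called higher and none lower, while 5.3% of all genes tested were called higher and 4.96% lower. A test against 1.5-fold (limma treat) also called none of the 10, beside 7.32% of all genes higher and 6.62% lower. At an unadjusted p under 0.05 in limma, 3 were higher and 1 was lower. The same 3 and 1 had an adjusted p under 0.05 with no fold threshold, where 34.2% of all genes were higher and 31.3% lower. These counts over 10 genes are too small to be set against the shares of all genes and are not read as a result about peptidases. Their median log2 fold change was 0.02, beside 0.03 for all genes tested.

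The described cysteine peptidases held the 5 most abundant transcripts of the list, and 6 of 8 were tested. *Mycth_112363*, of family C14, whose fungal members are metacaspases, stood at 150.14 and 139.68 FPKM in MtWT, against 147.85 and 144.25 FPKM in the labelled libraries. Its groups overlapped, with a log2 difference of 0.01 (limma, standard error 0.05, adjusted p = 0.85). *Mycth_2067869*, of family C54, which holds the Atg4 protease of autophagy, stood at 9.67 and 10.42 FPKM in MtWT and at 13.94 and 15.19 FPKM in the labelled libraries. It was higher there without reaching 2-fold, with a log2 difference of 0.49 (limma, adjusted p = 0.00047). *Mycth_2085328*, described as a cysteine, histidine-dependent amidohydrolase or peptidase, a domain that also occurs in enzymes that cut cell wall peptides, had 79.73 and 84.81 FPKM in MtWT and 127.46 and 121.17 FPKM in the labelled libraries, a log2 difference of 0.59 (limma, adjusted p = 1.1e-05). Both C19 genes, of ubiquitin carboxyl-terminal hydrolases, which remove ubiquitin from proteins, were between 11.25 and 18.71 FPKM in every library. *Mycth_2055311* among them had a log2 difference of 0.28 (limma, adjusted p = 0.021), and *Mycth_116322* had 0.03 (limma, adjusted p = 0.72).

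The described serine and aspartic peptidase genes were low on Avicel. Peptidase genes with no description at hand were not examined, other than *alp-1*. Of 1490 described genes, 1118 averaged 1 FPKM or more, against 7525 of all 8716 genes. The described genes thus lean to low levels and may not stand for these classes. All 5 described aspartic peptidase genes were below 1 FPKM in every library and none was tested. Of 5 described serine peptidase genes, none above 2.51 FPKM in any library, 2 were tested. They were of families S28 and S14 (ClpP), with log2 fold changes of −0.15 and −0.02. Both described metallopeptidase genes, apart from *Mycth_117209* and *Mycth_114376*, were tested. *Mycth_111035*, of family M14, the carboxypeptidases that trim proteins from their carboxyl end, stood at 2.78 and 2.42 FPKM in MtWT and at 0.85 and 1.19 FPKM in the labelled libraries. It was lower there, with a log2 difference of −0.84 (limma, adjusted p = 0.00075), and with a pseudocount of 0.1 it was −1.28 and passed the fold threshold. *Mycth_2061855*, of the papain-like cysteine proteases, had 1.39 and 1.59 FPKM in MtWT and 0.26 and 0.23 FPKM in the labelled libraries, with a mean under 1 FPKM, and was not tested over the 4 libraries. With no filter on low values it was not called, at a log2 fold change of −0.999, just short of 2-fold. Its mean reached 1 FPKM when either labelled library was left out, through its MtWT values. The lower call without replicate 1 labelled MtTrh-1 deletion, at a log2 fold change of −1.02, is therefore not read as a result. *Mycth_111035* and *Mycth_2061855* are named here after their values were seen. The 20 genes together summed to 286.21 and 281.43 FPKM in MtWT and to 338.18 and 326.26 FPKM in the other strain. The mean sum went from 284 to 332 FPKM, and the mean of *Mycth_2085328* alone went from 82.3 to 124 FPKM. The sum is therefore not read as a rise over the list.

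**Figure D2:**
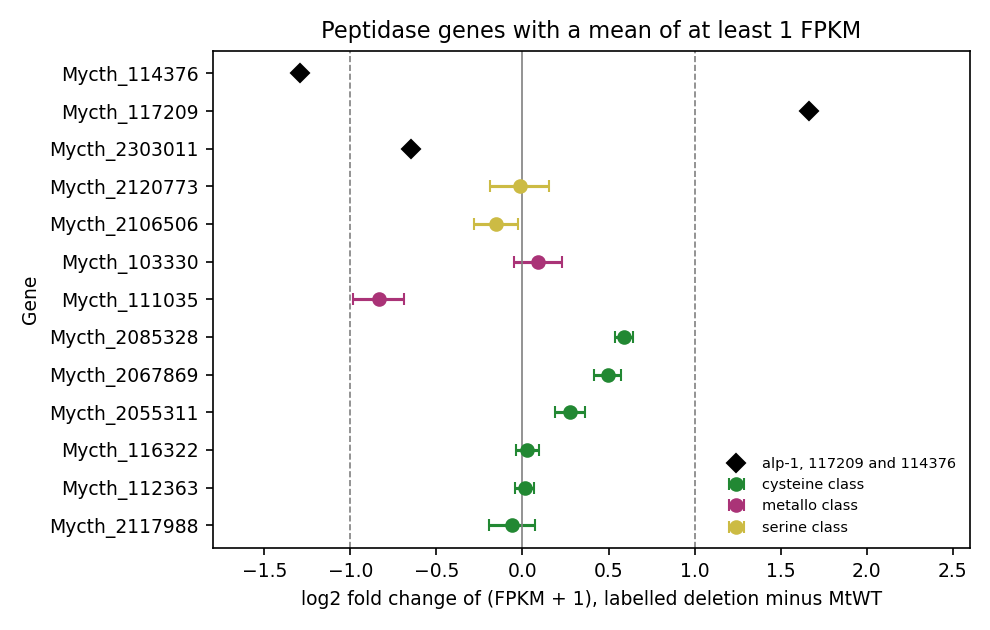
Log2 fold change of FPKM + 1, libraries labelled MtTrh-1 deletion minus MtWT (horizontal axis), of the 10 other described peptidase genes tested, coloured by class with bars for the standard error from limma, and of the 3 peptidase genes above as black diamonds without a test. Dashed lines mark the fold threshold, which none of the 10 genes crosses, with values from −0.84 to 0.59.

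Described genes for the uptake of amino acids were higher in the libraries labelled MtTrh-1 deletion in 4 of 5 tested cases. A count over 5 genes is not read as a result about transporters, and no link to the peptidase genes was tested. Of 6 genes described as amino acid permeases or amino acid transporters, 5 were tested with limma, and 4 of them were higher and none lower at an adjusted p under 0.05, where 34.2% of all genes were higher. A test against 1.5-fold (limma treat) called 3 of the 5 higher, *Mycth_115858*, *Mycth_2089733* and *Mycth_2090611*, beside 7.32% of all genes. With the 2-fold threshold 1 of the 5 was called higher, beside 5.3% of all genes. It was *Mycth_2090611*, at 3.39 and 3.67 FPKM in MtWT and at 8.56 and 7.80 FPKM in the labelled libraries, a log2 difference of 1.02 (limma, adjusted p = 1.5e-05). This call was lost without replicate 1 labelled MtTrh-1 deletion, without MtWT replicate 1, with median-of-ratios scaling and with a pseudocount of 10, each of which left 0 genes called. The more abundant *Mycth_115858* had 22.83 and 24.09 FPKM in MtWT and 45.35 and 43.72 FPKM in the labelled libraries, a log2 difference of 0.90 (limma, adjusted p = 1.2e-06). *Mycth_2089733* had 12.49 and 12.64 FPKM, and 25.08 and 24.02 FPKM, a log2 fold change of 0.91. *Mycth_2055845*, also higher at an adjusted p under 0.05, was low in every library. It had 1.33 and 2.37 FPKM in MtWT, and 3.46 and 3.22 FPKM in the labelled libraries. The list was chosen with earlier results of these data known, and the transporters named in this paragraph were picked with their values known. The median over the 5 genes was 0.90, beside 0.03 for all genes tested, and like the count it is not read as a result about transporters. Only 2 of the 6 genes had a mean of at least 10 FPKM in either strain.

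**Figure D3:**
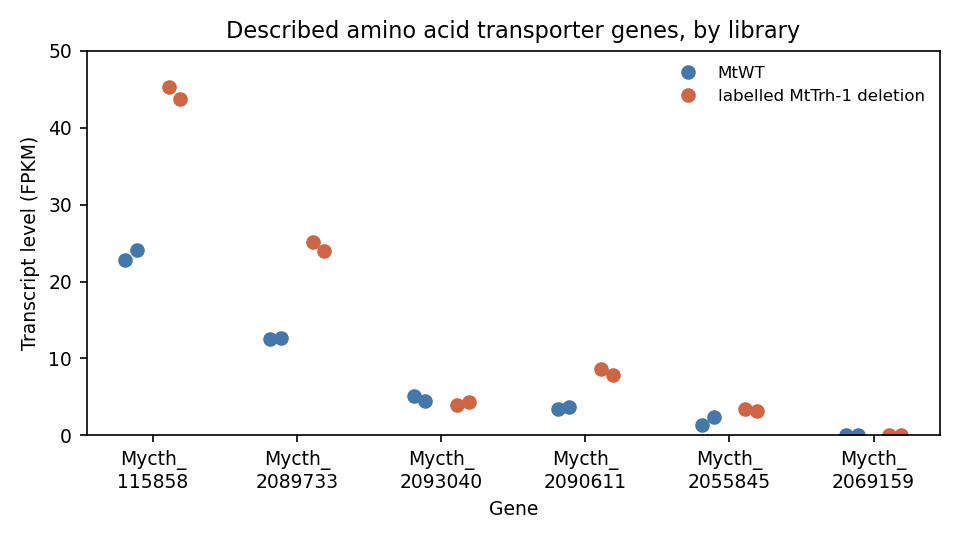
Transcript level in FPKM (vertical axis) of the 6 described amino acid transporter genes (horizontal axis) in each library, blue for MtWT and orange for those labelled MtTrh-1 deletion. Points are libraries. *Mycth_115858*, *Mycth_2089733*, *Mycth_2090611* and *Mycth_2055845* are higher in both labelled libraries, and *Mycth_2093040* is not. *Mycth_2069159*, at 0.1 FPKM or less in every library, was not tested.

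The proteasome, which carries out the bulk of regulated protein breakdown in the cell, was named in the descriptions of 4 genes, and all 4 were tested. The descriptions are an alpha-subunit, 20S A and B subunits, a proteasome or cyclosome regulatory subunit, and the maturation factor UMP1. None was called higher or lower in limma, where 5.3% and 4.96% of all genes were. At an adjusted p under 0.05 with no fold threshold, none was higher and 1 was lower, beside 34.2% and 31.3% of all genes, and an unadjusted p under 0.05 gave the same counts. Counts over 4 genes are too small to be set against those shares and are not read as a result about the proteasome. The gene that was lower, the alpha-subunit gene *Mycth_112442*, had 116.46 and 117.54 FPKM in MtWT and 92.48 and 85.33 FPKM in the labelled libraries, a log2 fold change of −0.39, and is named after its value was seen. The only described gene of nitrogen assimilation, the ammonium transporter *Mycth_105575*, also named after its value was seen, had a log2 difference of 0.32 (limma, adjusted p = 0.031), at 3.26 to 4.86 FPKM. No gene was described as a peptidase inhibitor.

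The genes next to each peptidase gene were examined, with the gene order taken from RefSeq (ASM22609v1). *alp-1* lies on chromosome 2, *Mycth_117209* on chromosome 7 and *Mycth_114376* on chromosome 1. Of the 12 genes that make up the nearest 2 on each side, 11 were in the file, 10 were tested and none was called in limma. By the adjusted p alone, 4 were higher and 4 lower, where 34.2% and 31.3% of all genes were, and an unadjusted p under 0.05 gave the same counts. These counts are near the shares of all genes.

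Around *Mycth_117209*, 3 of 4 neighbours were higher at an adjusted p under 0.05. The 2 on one side were abundant, *Mycth_71748* at 317.44 and 311.06 FPKM in MtWT and 510.61 and 527.92 FPKM in the labelled libraries, and *Mycth_2316731* at 559.26 and 543.10 FPKM against 1078.13 and 1107.01 FPKM. Their log2 fold changes were 0.72 (limma, adjusted p = 1.1e-06) and 0.99 (limma, adjusted p = 1.6e-07), below the 1.67 of *Mycth_117209*. The gene next to it on the other side, *Mycth_2312796*, was at 3.07 FPKM or less in every library and had −0.07. Next to *Mycth_114376*, the shikimate kinase gene *Mycth_2054249*, an enzyme class of aromatic amino acid synthesis, had 107.08 and 100.56 FPKM in MtWT and 64.93 and 66.54 FPKM in the labelled libraries, a log2 difference of −0.65 (limma, adjusted p = 4.9e-06). Of 3 tested neighbours of *Mycth_114376*, 2 were lower and 1 higher. Of 3 tested neighbours of *alp-1*, 2 were lower, with −0.44 for *Mycth_2126152* and −0.41 for the protein kinase gene *Mycth_2117720*, and none was higher. Among all genes, 34.2% were higher and 31.3% lower by the same criterion. Sets of 3 or 4 neighbours are too small for a comparison with these shares. Nothing is read from their directions, and a change shared between a peptidase gene and its neighbours was not tested.

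For each of the 3 genes, the described genes with the most similar pattern over the 4 libraries were listed, by the Euclidean distance between their log2 values after the mean of each gene was subtracted. At least 543 described genes that averaged 10 FPKM or more were compared. Nearest to *alp-1* came *Mycth_2050348*, a Like-Sm ribonucleoprotein, at a distance of 0.042, with 42.07 and 43.48 FPKM in MtWT and 29.53 and 25.79 FPKM in the labelled libraries. It was followed by *Mycth_2050335*, of a GRF-type zinc finger, and *Mycth_2062826*, with an RNA recognition motif, at 0.109 and 0.112. None of the 3 is described as a peptidase. Only 5 genes of the peptidase list averaged 10 FPKM or more, so nothing is read from this.

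Nearest to *Mycth_117209* were the glutathione S-transferase gene *Mycth_112025*, at a distance of 0.066, and *Mycth_2117900*, described as a heavy metal transport or detoxification protein, at 0.111. *Mycth_2117900* stood at 100.56 and 97.19 FPKM in MtWT and at 305.59 and 301.69 FPKM in the labelled libraries. The third was *Mycth_111314*, of unknown function, at 0.169. Nearest to *Mycth_114376* were *Mycth_100589*, of the fumarate reductase or succinate dehydrogenase flavoproteins, at 0.097, then *Mycth_2107828*, of unknown function, at 0.111, and *Mycth_109897*, whose description names only a TonB box motif, at 0.128. Over 4 libraries in 2 strains, this distance mainly compares the size of the difference between strains.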

How the data were processed

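The authors sequenced mycelial RNA of 2 strains, with 2 libraries each, and deposited FPKM for 8716 genes, of which 123 were at 0 throughout. HISAT and Bowtie2 are the tools in the submitters' notes, whereas the paper's methods name TopHat and HTSeq-count. The genome build is one of the facts not given in the sources used here. Among genes at low FPKM, the most frequent log2 ratio of a library to replicate 1 labelled MtTrh-1 deletion was 0.0 or 0.1, so 1 fragment was worth about the same in each. FPKM are not counts. Values were therefore tested as log2(FPKM + 1) in limma 3.58.1 under R 4.3.3, using trended variances, no covariate and Benjamini-Hochberg adjustment, over the 7525 genes that averaged 1 FPKM or more. An exact permutation test of 2 libraries against 2 has a smallest p of 0.33 and was not used.

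The 3 genes and all lists were chosen with earlier results of these data known. Lists rest on words in the product descriptions of the study's supplement, held in part, whose values were not used. Genes named are the 3 genes, called peptidase genes with at least 10 FPKM in the higher strain, the 5 most abundant, up to 3 called genes of each other list, the nearest 2 genes on each side and the 3 most similar described genes. Others are said to be named after their values were seen. RefSeq (ASM22609v1) held 8681 of the identifiers. Alternatives covered the pseudocount, filter, scaling, variance trend, thresholds, replicate block and leaving out each library. Plots were drawn with matplotlib 3.10.9.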

Additional observations from a re-analysis of the deposited data

How the results depend on the processing

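The direction of the 3 genes was the same under all 9 alternatives run for each. Since their groups did not overlap, leaving out a library or changing the pseudocount could not reverse it. The replicate block could not move it either, with both replicate numbers in each strain. The sameness is therefore not read as support. *alp-1* ranged from −0.75 to −0.55 on the log2 scale. With a pseudocount of 10, *Mycth_117209* had 1.47 and *Mycth_114376* had −0.98. Over all genes, a pseudocount of 10 left 194 called higher and 181 lower, against 399 and 373, and no fold threshold gave 2570 and 2356. In the list of described peptidases, no fold threshold gave 3 higher and 1 lower, a pseudocount of 0.1 gave 1 lower (*Mycth_111035*), and leaving out 1 library gave 0 to 1 lower, the 1 being *Mycth_2061855*, without replicate 1 labelled MtTrh-1 deletion, where the low library left out raised its mean to 1 FPKM or more. The counts for amino acid transporters under other settings were added after the data were seen, with 0 to 1 gene called higher when 1 library was left out and 3 with limma treat.

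With the replicate number as a block, 400 genes were called higher and 373 lower, and the counts of the peptidase and amino acid transporter lists did not change. The other lists were not run under the block. The deviations of same-numbered libraries had a correlation of −0.02, so no shift shared by same-numbered libraries was seen. With 2 libraries per strain, this cannot tell if they were grown or prepared together. Where a strain was left with 1 library, it was assumed to vary like the other strain. Genes that averaged under 1 FPKM were left out of the counts in the report, and with no filter on low values 403 genes were called higher and 373 lower. The read numbers behind low values are unknown.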

Other observations

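A few described peptidase genes below the filter had a value in 1 library only, and they are named after their values were seen. *Mycth_2060437*, described by the subtilisin, kexin and sedolisin families, stood at 2.51 FPKM in replicate 1 labelled MtTrh-1 deletion and was listed at 0 in the other 3 libraries. The aspartic peptidase gene *Mycth_110951* stood at 0.60 FPKM in that library and was listed at 0 in the others. No fold is given against values listed at 0.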
